A study of Mus musculus with 13 samples.

Results

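Tudor domain proteins of germ granules are described here through the transcripts of 10 genes: Tdrd1, Tdrd3, Tdrd5, Tdrd6, Tdrd7, Tdrd9, Tdrd12, Tdrkh, Stk31 and Snd1. They were taken by symbol as members of the Tudor domain family, and all 10 were found among the 35976 gene symbols counted. RNA was sequenced from primordial germ cells, from which sperm later arise, of male mouse embryos at E14.5. The cells had been sorted by an Oct4-GFP reporter, and each library was made from 5000 cells. The 4 groups differ at Tet1, which encodes an enzyme that oxidises 5-methylcytosine in DNA. The groups are KO, the knockout; HxD, an allele known for a catalytically dead protein; V, an allele known for a protein that stalls at 5-hydroxymethylcytosine; and WT, the wild type. Each group had 3 libraries. The labels give the Tet1 genotype alone and do not say whether an allele was homozygous, what the knockout removes, or whether replicates came from separate embryos. The p-values therefore measure the spread between these libraries, which may be technical.

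A Tudor domain is a small fold that binds methylated arginine or lysine in other proteins. In germ cells, Tudor proteins read symmetrically dimethylated arginines on PIWI proteins, a mark written by PRMT5, and so gather PIWI proteins, helicases and RNA into germ granules such as the intermitochondrial cement and the chromatoid body. There PIWI-interacting RNAs (piRNAs), which silence transposons in the fetal testis, are made. Several genes of this machinery are known to have promoters that are methylated outside the germ line and lose methylation in primordial germ cells. SND1 and TDRD3 are Tudor proteins of most cell types rather than of germ cells alone.

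Total counts ran from 13584484 to 29641963 per library. Levels are given as CPM, a gene's counts relative to the library total after TMM scaling, and differences as log2 fold changes with standard errors and adjusted p-values from edgeR's quasi-likelihood test over 14702 genes. A gene is called where that adjusted p is below 0.05. Tet1, the mutated gene, had 201 to 225 CPM in KO, 536 to 735 in HxD, 364 to 625 in V and 589 to 639 in WT, and it fell in KO by 1.51 on the log2 scale (SE 0.17, edgeR adjusted p = 1.41e-05). The 8 germ cell markers examined summed to 3124 to 3434 CPM in KO, 2918 to 3873 in HxD, 3426 to 3771 in V and 4265 to 4474 in WT. Dazl, the largest part of the WT sum, averaged 849 CPM in KO, 793 in HxD, 953 in V and 1754 in WT. Ddx4, the next largest there, averaged 532 CPM in KO, 590 in HxD, 704 in V and 862 in WT. Nanos2 was at 0 in 4 libraries, and the other 7 had counts in all 12. Among the markers, 4 had negative and 4 positive log2 fold changes in each mutant. Dazl was called lower in KO and HxD, and both calls ended with WT 3 and V 3 set aside (adjusted p = 0.0955 and 0.0904), the HxD one also without HxD 3 (0.0539). EdgeR called 0 markers higher. Of all tested genes, it called 0.15% lower in KO, 0.0204% in HxD and 0% in V. DESeq2 called 2 markers lower in KO, 1 in HxD and 1 in V, against 0.981%, 1.01% and 0.25% of genes. It called 0 higher in KO, 1 in HxD and 1 in V, against 0.574%, 0.456% and 0.277%. The marker it called lower in V was Dazl (DESeq2 adjusted p = 0.0120). EdgeR did not call Dazl there (adjusted p = 0.190), but did with no expression filter (0.000454) or with a replicate block (0.00633). It also did without KO 1, KO 2, KO 3, HxD 1, HxD 3, V 1 or WT 2 (0.0234 to 0.0448), and not in the other edgeR settings. Pou5f1, named after its values were seen, was at 0.55 in HxD and 0.71 in V on the log2 scale (edgeR adjusted p = 0.345 and 0.293). Its unadjusted edgeR p was 0.00215 in HxD and 0.000165 in V, and its DESeq2 values are not given here. Sertoli cell markers summed to 9.81 to 49.6 CPM in KO, 2.53 to 35.2 in HxD, 8.41 to 302 in V and 7.78 to 93.4 in WT, with the highest sums in V 2 and WT 3. Sox9, a defining Sertoli gene, was at 0 in 8 of 12 libraries. The other Sertoli markers were found more widely: Amh had counts in all 12 (1.54 to 216 CPM), and Wt1 was at 0 in 1, Dhh in 3 and Gata4 in 4. Markers of Leydig and interstitial cells, macrophages, erythroid cells and granulosa cells each summed to at most 32.3 CPM in any library. Of the 4 endothelial markers, Pecam1, which germ cells also express, had 119 to 273 CPM, and Cdh5, Kdr and Tek each reached at most 7.71 CPM. In bulk RNA, fewer cells of a type and less RNA per cell cannot be told apart, and the part of cell composition in the results was not tested.

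Transcripts of 9 members were found at moderate to high levels or, for Tdrd9, at a low one, and those of Tdrd6 were all but absent. Tdrd6, whose protein belongs to the chromatoid body of spermatids, had 8 counts in KO 2, 1 count in V 1 and 0 in each of the other 10 libraries. An expected count of 3, about the upper 95% limit where 0 is counted, would be 0.103 to 0.220 CPM in these libraries. This limit covers counting error only. The other 9 members passed the expression filter of edgeR and were tested. Levels between genes were compared per kilobase of exon, with exon lengths from GENCODE M21 (GRCm38), since the annotation used for counting is not given in the sources used here. Each length joins all annotated exons of a gene, 9.757 kb for Snd1 and 3.237 kb for Stk31. On that scale, Stk31 was the most abundant in every genotype, at 91.6 ± 1.12 CPM per kb in KO, 79.8 ± 23.4 in HxD, 87.0 ± 21.1 in V and 125 ± 40.2 in WT (SD, n = 3 each). Snd1 came next, at 38.5 ± 0.975 in KO, 41.6 ± 4.65 in HxD, 39.8 ± 1.05 in V and 37.8 ± 9.73 in WT. Without division by length, their order was reversed in the mutants. Snd1 then averaged 375 CPM in KO, 406 in HxD, 389 in V and 369 in WT. Stk31 averaged 297 CPM in KO, 258 in HxD, 282 in V and 405 in WT. In WT the next 5 genes, Tdrd7, Tdrd12, Tdrd1, Tdrkh and Tdrd5, lay between 18.5 and 27.4 CPM per kb on average, and their ranges over libraries overlapped, so their order is not resolved. Tdrd3 followed at 8.46 ± 0.105 and Tdrd9 at 2.11 ± 0.532. In KO, Tdrd1 stood at rank 8 with 4.90 ± 2.84 CPM per kb, against rank 5 with 20.7 ± 13.0 in WT, and in HxD and V it stood at rank 7. Its KO range overlapped that of its neighbour in the order, Tdrd3, and in WT the ranges of Tdrd1 and Tdrd3 did not overlap.

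**Figure D1:**
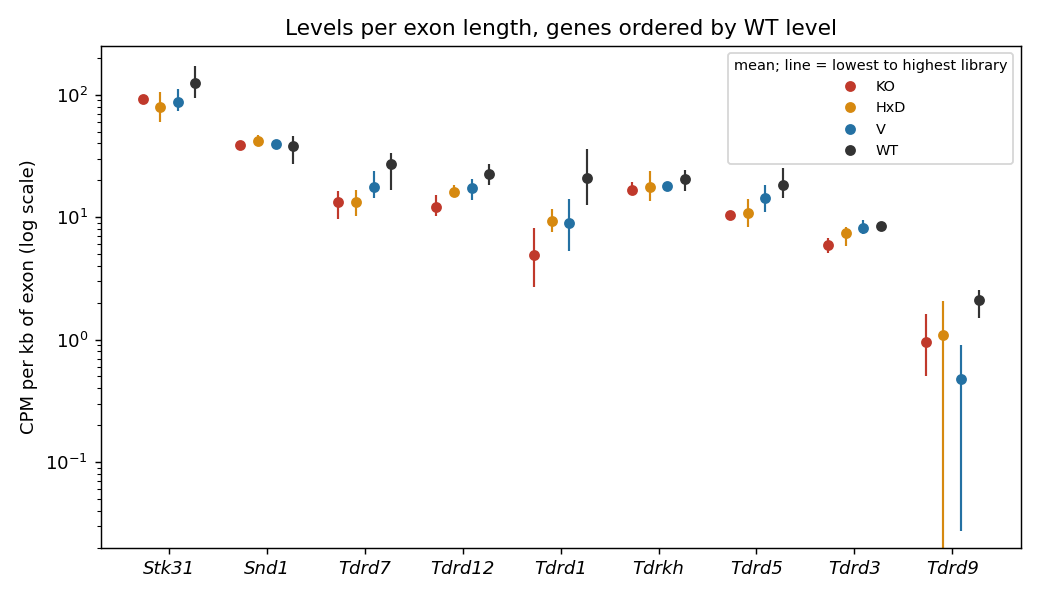
Level of each Tudor gene in CPM per kb of exon (log scale), with genes ordered by their WT level and Tdrd6 left out. Points are means of 3 libraries in KO, HxD, V and WT, and lines run from the lowest to the highest library; the HxD line of Tdrd9 reaches 0 and leaves the axis. Tdrd1 averages 4.90 in KO and 20.7 in WT, whereas Snd1 stays between 37.8 and 41.6.

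Tdrd1 showed the largest difference of the 9 in KO. Its protein binds the PIWI protein PIWIL2 in the intermitochondrial cement and is needed for piRNAs to be loaded correctly. The gene lies on chromosome 19, 56826209 to 56870012, plus strand (GRCm38, GENCODE M21). Tdrd1 had 329, 455 and 1154 counts in KO, 1856, 1082 and 633 in HxD, 918, 633 and 1037 in V and 3879, 1657 and 1558 in WT. Scaled to depth, these were 14.53, 21.4 and 44.1 CPM in KO, 63.4, 46.3 and 40.9 in HxD, 41.1, 28.6 and 76.1 in V and 194, 75.4 and 68.3 in WT. Every KO and HxD library lay below every WT library, V 3 lay between WT libraries, and WT 1 stood far above the other two. Tdrd1 fell in KO (log2 fold change -2.08, SE 0.40, edgeR adjusted p = 0.0127). It was 4.22-fold lower there. The values in HxD (-1.16, SE 0.39, edgeR adjusted p = 0.415) and V (-1.22, SE 0.39, edgeR adjusted p = 0.579) were not called, and without WT 1 they were -0.52 and -0.56. Over the mean of the 3 mutants, Tdrd1 was 2.80-fold lower than in WT. That is -1.49 on the log2 scale (SE 0.29, edgeR adjusted p = 0.0193), with 8 of 9 mutant libraries below every WT library. Both calls ended without WT 1, where the KO value was -1.43 (edgeR adjusted p = 0.122) and the mean of the mutants -0.84 (edgeR adjusted p = 0.472). They also ended with a filter at a mean of 8 CPM (adjusted p = 0.0616 and 0.0824), and the KO call with those 2 genotypes alone in the fit (adjusted p = 0.111). Without WT 3, the WT library with the highest Sertoli sum, the KO value was -2.34, and without V 2, the V library with the highest, the V value was -0.95.

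The promoter sequences of Tdrd1, Stk31 and Snd1 are shown because TET1 acts on methylated cytosine, which in mammals stands mostly in CpG dinucleotides. Stk31 is the most abundant member per kilobase of exon and is expressed in germ cells, and levels of Snd1 overlapped between groups. Each window is RefSeq's, on GRCm38.p6, and runs 5′ to 3′ on the gene's strand from 250 bases before to 50 bases after the annotated start. Capitals mark CpG dinucleotides. Tdrd1 is chr19:56825959-56826258 (+), Stk31 is chr6:49395289-49395588 (+) and Snd1 is chr6:28480098-28480397 (+). The Snd1 window lies inside the gene span given by GENCODE M21, which starts upstream at 28475139, so this window may not be the promoter of that outermost start. Starts of single transcripts were not compared between the annotations.
Tdrd1: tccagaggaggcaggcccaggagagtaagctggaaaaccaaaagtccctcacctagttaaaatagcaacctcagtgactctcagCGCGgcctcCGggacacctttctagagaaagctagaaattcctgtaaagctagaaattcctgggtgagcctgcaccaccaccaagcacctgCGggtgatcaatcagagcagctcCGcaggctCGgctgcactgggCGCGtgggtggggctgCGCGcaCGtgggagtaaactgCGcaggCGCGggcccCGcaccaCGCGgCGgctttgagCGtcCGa
Stk31: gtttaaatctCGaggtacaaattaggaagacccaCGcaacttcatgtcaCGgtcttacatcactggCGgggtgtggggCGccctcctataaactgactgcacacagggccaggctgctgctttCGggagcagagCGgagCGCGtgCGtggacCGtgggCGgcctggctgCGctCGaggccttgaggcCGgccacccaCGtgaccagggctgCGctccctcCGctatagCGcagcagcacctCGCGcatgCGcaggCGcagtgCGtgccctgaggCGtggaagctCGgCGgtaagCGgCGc
Snd1: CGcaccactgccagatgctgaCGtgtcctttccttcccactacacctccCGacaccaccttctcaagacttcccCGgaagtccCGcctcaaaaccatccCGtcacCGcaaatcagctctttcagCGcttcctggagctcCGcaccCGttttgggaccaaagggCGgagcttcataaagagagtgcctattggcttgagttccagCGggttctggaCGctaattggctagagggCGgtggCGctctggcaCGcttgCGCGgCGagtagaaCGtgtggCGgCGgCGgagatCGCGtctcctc
The window of Tdrd1 holds 20 CpGs, that of Stk31 29 and that of Snd1 25, against a median of 7 over 32817 RefSeq windows of this length. The motif CACGTG, an E-box, begins at position -11 from the start in Tdrd1 and at -55 in Stk31, was not found in the Snd1 window, and occurs in 7.15% of all windows. Both strands were searched. The E2F-type letters TCCCGC (20% of windows) were found in Snd1 at -170 and not in the other two. The GC-box letters GGCGGG (35.3% of windows) were found in Stk31 at -186 and in Snd1 at -169, where they overlap the E2F-type match on the opposite strand. A second Stk31 window, chr6:49395354-49395653, lies around the GENCODE M21 start, 49395604, and holds 28 CpGs, 1 E-box and 0 GC-boxes. The further windows of Tdrd1 hold 25 CpGs with 1 E-box, and 3 CpGs with 0. Of the 9 members with a window, 3 hold the E-box (Tdrd1, Tdrd9 and Stk31), 3 the E2F-type letters and 5 the GC-box in the most upstream window; Tdrd6 had none listed. CpG counts in the most upstream windows ran from 4 in Tdrd7, whose 2 further windows hold 32 each, and 9 in Tdrd12 to 48 in Tdrd5. DNA methylation was not analysed here, and these matches describe letters, not binding.

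**Figure D2:**
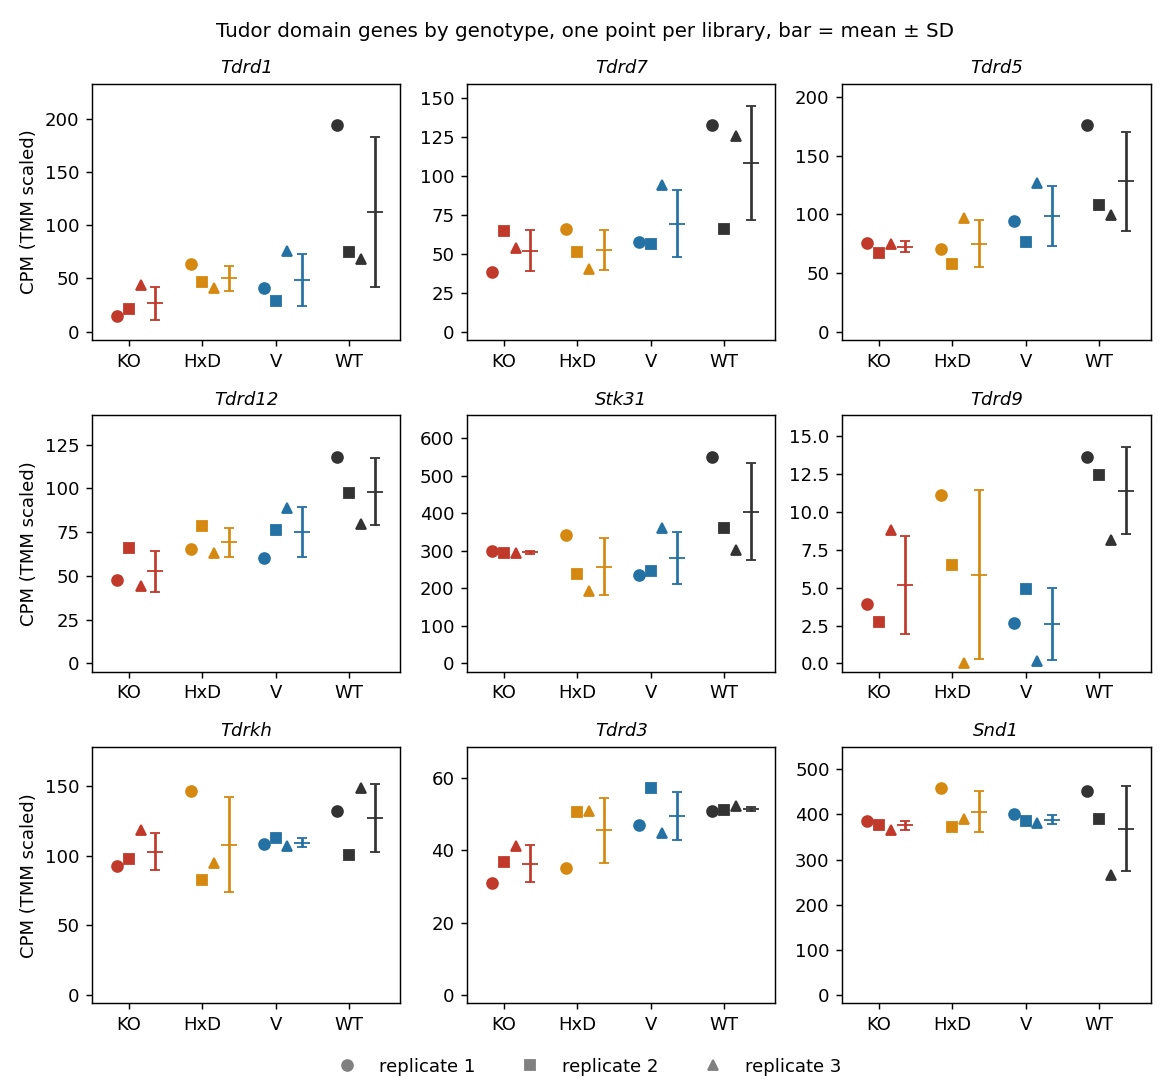
CPM of the 9 tested Tudor genes in every library (axes linear, one panel per gene), with KO, HxD, V and WT from left to right, marker shapes for replicate numbers and bars for the mean ± SD of 3 libraries. Tdrd1 lies at 14.53 to 44.1 CPM in KO and 68.3 to 194 in WT, and Snd1 overlaps in all groups.

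Tdrd7 and Tdrd5 encode scaffold proteins of germ granules, and both were lower in KO and HxD without being called. TDRD7 also acts in the lens, and TDRD5 is needed for transposon silencing and for the chromatoid body. Tdrd7 (chromosome 4, 45965334 to 46034761, plus strand) had 38.2, 64.8 and 53.5 CPM in KO, 65.7, 51.1 and 40.6 in HxD, 57.5, 56.6 and 94.4 in V and 133, 66.2 and 126 in WT. Every KO and HxD library lay below every WT library, although WT 2 exceeded KO 2 and HxD 1 by little. The log2 fold changes of Tdrd7 were -1.05 in KO (SE 0.29, edgeR adjusted p = 0.147), -1.04 in HxD (SE 0.29, edgeR adjusted p = 0.279) and -0.64 in V (SE 0.29, edgeR adjusted p = 0.798). Over the mean of the mutants it was -0.91 (SE 0.22, edgeR adjusted p = 0.0814), with 8 of 9 mutant libraries below every WT library. Tdrd5 (chromosome 1, 156255296 to 156303664, minus strand) had 75.3, 67.1 and 74.7 CPM in KO, 70.7, 57.6 and 96.8 in HxD, 94.2, 76.1 and 126 in V and 176, 108 and 99.7 in WT. The KO libraries of Tdrd5 were close together and below all WT libraries, and V overlapped WT. Its log2 fold changes were -0.82 in KO (SE 0.25, edgeR adjusted p = 0.215), -0.77 in HxD (SE 0.25, edgeR adjusted p = 0.401) and -0.37 in V (SE 0.25, edgeR adjusted p = 0.864). Without WT 1, where Tdrd5 was highest, they were -0.52, -0.47 and -0.07. An antisense gene shares 176 exon bases with Tdrd5 in GENCODE M21.

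Tdrd12 and Tdrd9 encode Tudor proteins with helicase domains. TDRD12 binds PIWIL2, and TDRD9 works with PIWIL4, the PIWI protein that enters the nucleus of fetal male germ cells. Tdrd12 (chromosome 7, 35469098 to 35537745, minus strand) had 47.9, 66.1 and 43.9 CPM in KO, 65.4, 78.7 and 63.2 in HxD, 60.3, 76.3 and 88.9 in V and 118, 97.1 and 79.3 in WT. KO and HxD lay below WT in every library, the lowest WT library exceeding HxD 2 by less than 1 CPM. The log2 fold changes of Tdrd12 were -0.90 in KO (SE 0.25, edgeR adjusted p = 0.150), -0.51 in HxD (SE 0.25, edgeR adjusted p = 0.5997) and -0.39 in V (SE 0.25, edgeR adjusted p = 0.854). Without WT 1 they were -0.75, -0.35 and -0.23. DESeq2 called Tdrd12 lower in KO (adjusted p = 0.0193).

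Tdrd9 (chromosome 12, 111971559 to 112068854, plus strand) had the lowest level of the tested members, with 89, 58 and 231 counts in KO, 325, 151 and 0 in HxD, 60, 109 and 2 in V and 272, 273 and 186 in WT. As CPM, these were 3.93, 2.73 and 8.82 in KO, 11.1, 6.46 and 0 in HxD, 2.68, 4.93 and 0.147 in V and 13.6, 12.4 and 8.15 in WT. The 3 WT libraries were all above the 3 V libraries, and HxD ran from a count of 0 in HxD 3 to the level of WT in HxD 1. The fitted values carried wide intervals, with a log2 fold change of -2.13 in V (95% interval -5.02 to 0.76, edgeR adjusted p = 0.867), -1.14 in KO (-3.95 to 1.66, edgeR adjusted p = 0.979) and -0.96 in HxD (-3.75 to 1.84, edgeR adjusted p = 0.964). Single libraries moved these values, to -1.78 in KO without KO 3, to -1.81 in HxD without HxD 1 and -0.36 without HxD 3, and to -3.00 in V without V 2 and -1.58 without V 3. No difference of Tdrd9 was detectable with this spread.

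Tdrkh encodes a protein with KH and Tudor domains that sits on the outer membrane of mitochondria and is needed for piRNA trimming. It lies on chromosome 3, 94413273 to 94434668, plus strand. It had 92.6, 97.9 and 118 CPM in KO, 146, 82.4 and 94.9 in HxD, 108, 113 and 107 in V and 132, 100.5 and 148 in WT. The groups overlapped, WT 2 falling among the mutant libraries. The log2 fold changes were -0.30 in KO (95% interval -0.75 to 0.14), -0.23 in HxD (-0.68 to 0.21) and -0.21 in V (-0.66 to 0.23), with edgeR adjusted p = 0.781, 0.869 and 1. Tdrkh shares 2255 exon bases with Oaz3 on the opposite strand in GENCODE M21, so the assignment of reads there is uncertain; Oaz3 itself was at 0 in 9 of 12 libraries and reached 68 counts in KO 3.

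Stk31 (chromosome 6, 49395604 to 49469501, plus strand) encodes a testis protein with a Tudor domain and a kinase-like domain. It had 301, 294 and 295 CPM in KO, 342, 238 and 194 in HxD, 237, 247 and 360.3 in V and 551, 363 and 302 in WT. The KO libraries differed by a coefficient of variation of 1.22% and all lay below WT, the nearest pair, KO 1 and WT 3, being less than 1 CPM apart. HxD and V each had 1 library above the lowest WT library. The log2 fold changes of Stk31 were -0.45 in KO (SE 0.21, edgeR adjusted p = 0.570), -0.65 in HxD (SE 0.21, edgeR adjusted p = 0.401) and -0.53 in V (SE 0.21, edgeR adjusted p = 0.757). Over the mean of the mutants it was -0.54 (SE 0.16, edgeR adjusted p = 0.220), and -0.26 without WT 1.

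Snd1 and Tdrd3 are the members that act in most tissues. SND1 carries nuclease-like repeats beside its Tudor domain, and TDRD3 reads methylated arginine on histones and works with the topoisomerase TOP3B. Snd1 (chromosome 6, 28475139 to 28935162, plus strand) had 384, 377 and 365 CPM in KO, 457, 371 and 389 in HxD, 400.1, 386 and 380.1 in V and 451, 390.4 and 265 in WT. All mutant libraries but HxD 1 lay within the range of WT. The log2 fold changes of Snd1 were 0.03 in KO (95% interval -0.32 to 0.37, edgeR adjusted p = 1), 0.14 in HxD (-0.21 to 0.48, edgeR adjusted p = 0.943) and 0.08 in V (-0.27 to 0.42, edgeR adjusted p = 1), and each turned negative without WT 3. Tdrd3 (chromosome 14, 87416639 to 87545504, plus strand) had 30.9, 36.7 and 41.1 CPM in KO, 35.1, 50.5 and 50.8 in HxD, 47.0, 57.0 and 44.6 in V and 50.9, 51.1 and 52.1 in WT. WT was very even for Tdrd3, at 51.4 ± 0.640 CPM (SD, n = 3), and V spanned it. Its log2 fold changes were -0.50 in KO (95% interval -1.09 to 0.08, edgeR adjusted p = 0.644), -0.18 in HxD (-0.76 to 0.41, edgeR adjusted p = 0.974) and -0.05 in V (-0.64 to 0.53, edgeR adjusted p = 1).

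**Figure D3:**
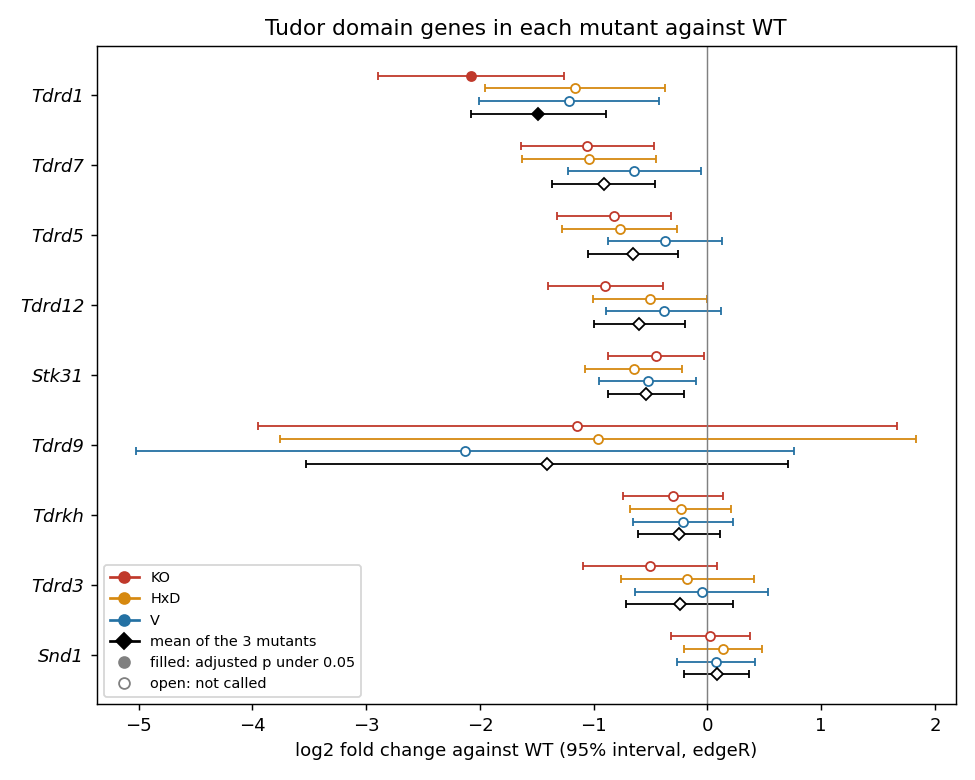
Log2 fold change against WT of the 9 tested Tudor genes in KO, HxD, V and over the mean of the 3 mutants, with 95% intervals from edgeR; filled markers have an adjusted p under 0.05. The filled markers are Tdrd1 in KO (-2.08) and over the mean of the mutants (-1.49), and the intervals of Tdrd9 are the widest.

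Most tested members had lower levels in each mutant than in WT, and edgeR called Tdrd1 in KO. The comparisons of KO, HxD and V share the WT libraries, so they are not independent of each other. Against WT, 1 of 9 tested members was called lower in KO by edgeR, where 0.15% of all tested genes were; 5 had an unadjusted p under 0.05 in that direction (Tdrd1, Tdrd5, Tdrd7, Tdrd12 and Stk31), against 4.54% of genes. DESeq2 called 2 members lower in KO, Tdrd1 and Tdrd12, against 0.981% of the genes it gave an adjusted p. The edgeR count in KO was 0 without WT 1, and 2 (Tdrd1 and Tdrd7) without KO 2, V 1 or WT 2. In HxD, edgeR called 0 members (0.0204% of genes lower), 5 had an unadjusted p under 0.05 (the same 5, against 4.82% of genes), and DESeq2 called 0 (1.01%). The HxD count was 1 without HxD 1, where Stk31 was called, and 1 without WT 2, where Tdrd7 was. In V, edgeR called 0 members (0% of genes lower), 3 had an unadjusted p under 0.05 (Tdrd1, Tdrd7 and Stk31, against 3.2% of genes), and DESeq2 called 0 (0.25%).

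Over the mean of the 3 mutants, edgeR called Tdrd1 alone of the 9 (0.102% of genes lower), as did DESeq2 (0.675%), and 5 members had an unadjusted p under 0.05 with lower values (6.24% of genes). The count called by edgeR was 0 without WT 1, 2 (Tdrd1 and Tdrd7) without KO 2, KO 3, HxD 2, V 1, V 3 or WT 2, and 3 (these and Stk31) without HxD 1. An exact two-sided permutation test of the 9 mutant against the 3 WT libraries, for each gene on log2(CPM + 1), gave unadjusted p-values from 0.00909 for Tdrd7 and 0.0182 for Tdrd1 to 0.432 for Snd1, where 0.00455 is the smallest these 220 splits allow. The median log2 fold change of the tested members was -0.82 in KO, -0.65 in HxD and -0.39 in V, where those of all tested genes were 0.00, -0.02 and 0.01. Of the 9, 8 had negative values in all 3 mutants, with Snd1 the exception, and 28.3% of tested genes did. Every mutant library lay below every WT library for 6 members in KO (8.15% of genes), for 5 in HxD (7.22%) and for 1, Tdrd9, in V (6.06%). WT 1 was the highest WT library for 7 of the 9 members and for 37.7% of tested genes.

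**Figure D4:**
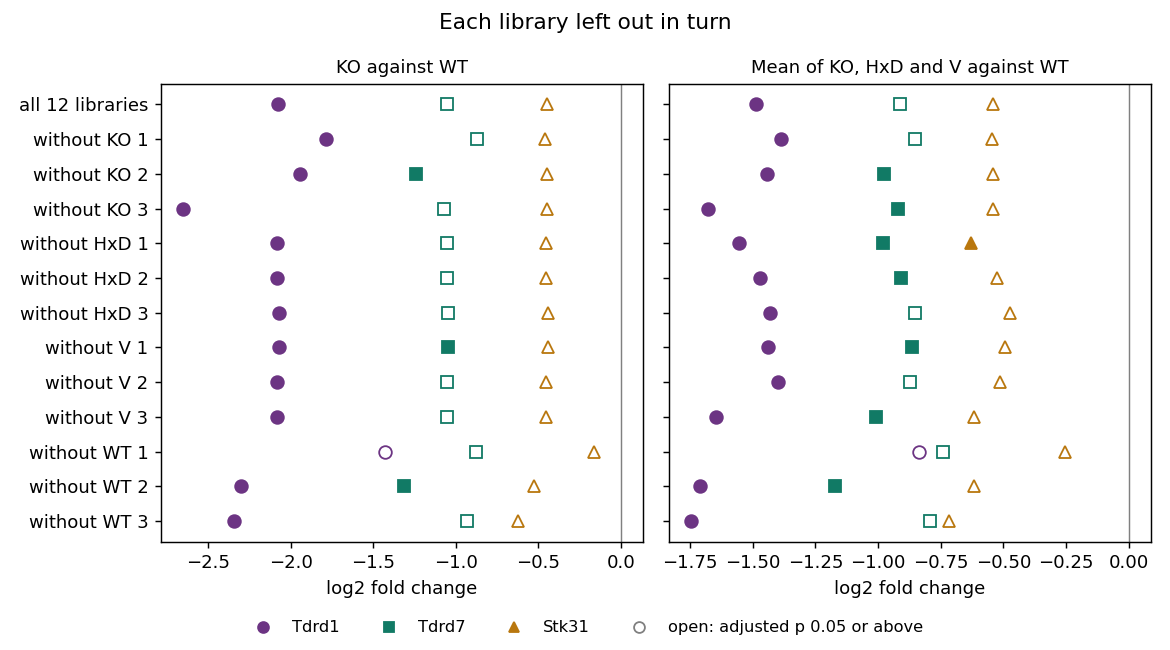
Log2 fold change of Tdrd1, Tdrd7 and Stk31 in KO against WT (left) and over the mean of KO, HxD and V against WT (right), with all 12 libraries and with each left out in turn; open markers have an edgeR adjusted p of 0.05 or above. Without WT 1, Tdrd1 moves to -1.43 and -0.84 and its marker is open in both panels.

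The mutants were also compared with each other. No Tudor gene was called by edgeR or DESeq2 in any of the 3 pairs. In HxD against KO, edgeR called 0 members (0.0068% of genes), 1 had an unadjusted p under 0.05 (4.67%), and DESeq2 called 0 (0.843%). That member was Tdrd1, with 50.2 ± 11.8 CPM in HxD and 26.7 ± 15.5 in KO (SD, n = 3 each; log2 fold change 0.91, 95% interval 0.12 to 1.70, edgeR adjusted p = 0.884). In V against KO, edgeR called 0 members (0.0204% of genes) and DESeq2 0 (0.466%), and Tdrd1 and Tdrd12 had an unadjusted p under 0.05 (4.1%). Tdrd1 averaged 48.6 ± 24.6 CPM in V and 26.7 ± 15.5 in KO (log2 fold change 0.86, 95% interval 0.07 to 1.65, edgeR adjusted p = 1), and Tdrd12 averaged 75.2 ± 14.3 CPM in V and 52.6 ± 11.8 in KO (0.51, 95% interval 0.01 to 1.02, edgeR adjusted p = 1). In V against HxD, 0 members were called by edgeR (0% of genes) or DESeq2 (0.817%), and 0 had an unadjusted p under 0.05 (5.07%). There the log2 fold change of Tdrd1 was -0.05 with a 95% interval of -0.83 to 0.73.

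Members varied together over libraries only in part. Over the 12 libraries, the Pearson correlation of log2(CPM + 1) across the 36 pairs of tested members had a median of 0.37 and ran from -0.24 to 0.77, the highest being that of Tdrd1 and Tdrd7. Pairs with Snd1 had a median of 0.08 and the other pairs 0.49. With the mean of each genotype taken out, the median was 0.26, with a range from -0.57 for Tdrd3 and Stk31 to 0.73 for Tdrd1 and Stk31. These values share libraries and depth and describe these 12 libraries alone. Of 8948 named genes averaging at least 8 CPM, the 5 most like Tdrd1 over the 12 libraries were Il17rd (r = 0.92), Mgat4a (0.88), Narf (0.87), Tanc2 (0.87) and Supt5 (0.86). None of these was called in a mutant, with Il17rd at 188 ± 20.5 CPM in KO, 245 ± 13.0 in HxD, 206 ± 22.9 in V and 284 ± 22.8 in WT (SD, n = 3 each).

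Among the partners of Tudor proteins in granules, Mael fell in KO and HxD. Of 17 germ granule and piRNA genes examined, 15 were tested; 14 of these were below 0 on the log2 scale in KO, 13 in HxD and 14 in V, and the medians were -0.70, -0.52 and -0.29. Of all 14702 tested genes, 7271 were below 0 in KO, 7591 in HxD and 7185 in V. EdgeR called 1 of them in KO, 1 in HxD and 0 in V; without adjustment, 6, 6 and 3 had a p under 0.05, all lower. Over all tested genes, the shares called lower were 0.15%, 0.0204% and 0%, and those lower without adjustment 4.54%, 4.82% and 3.2%. DESeq2 called 2 for KO, 1 for HxD and 0 for V, against 0.981%, 1.01% and 0.25% of genes. The gene called by edgeR was Mael, whose protein MAELSTROM is a granule component, at 22.1 ± 11.8 CPM in KO, 16.3 ± 6.40 in HxD, 39.6 ± 11.7 in V and 121 ± 45.2 in WT (SD, n = 3 each). Its log2 fold change was -2.45 in KO (edgeR adjusted p = 0.0018), -2.89 in HxD (edgeR adjusted p = 0.000567) and -1.61 in V (edgeR adjusted p = 0.293). Every mutant library lay below every WT library for Mael, and its calls in KO and HxD held in all 19 alternative settings run for each. In V, Mael was called with no expression filter (adjusted p = 0.000783), with the replicate block (0.0198) and without KO 1, KO 2 or KO 3 (0.0340, 0.0456 and 0.0440). Ddx4, the granule helicase MVH, had 539, 591 and 465 CPM in KO, 683, 613 and 473 in HxD, 624, 613 and 874 in V and 981, 834 and 772 in WT. EdgeR did not call Ddx4 in KO, HxD or V (log2 fold change -0.70 in KO, SE 0.17, edgeR adjusted p = 0.0823). DESeq2 values of Ddx4 are not given here. Ddx4 was named after its values were seen.

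Arginine methyltransferases and their cofactors, among them PRMT5, which writes the mark that Tudor proteins read on PIWI proteins, showed no called difference. All 9 arginine methyltransferases and cofactors were tested, and edgeR and DESeq2 called 0 in any mutant. Of all tested genes, edgeR called 0.218% in KO, 0.034% in HxD and 0% in V. DESeq2 called 1.56%, 1.46% and 0.527% of the genes it gave an adjusted p. At an unadjusted p under 0.05 edgeR found 0 of the 9 in KO, 1 in HxD (Coprs, lower, named after its value was seen) and 0 in V. The shares over all genes were 8.3%, 8.24% and 6.05%. Log2 fold changes were negative for 7 of the 9 in KO, 9 in HxD and 6 in V, against 49.5%, 51.6% and 48.9% of genes. The median of the 9 was -0.09 for KO, -0.15 for HxD and -0.03 for V. The subunits with the smallest p over the mean of the mutants were Clns1a, at 104 ± 20.4 CPM in KO, 109 ± 22.9 in HxD, 122 ± 5.40 in V and 138 ± 9.98 in WT (SD, n = 3 each), together with Wdr77, whose levels were 205 ± 15.5 CPM for KO, 232 ± 57.0 for HxD, 209 ± 42.9 for V and 256 ± 6.34 for WT. Both are cofactors of PRMT5.

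Other Tudor domain genes, mostly chromatin readers, had medians nearer 0. Of 22 examined, 20 were tested, and 14 had negative log2 fold changes in KO, 11 in HxD and 11 in V, with medians of -0.20, -0.01 and -0.04. EdgeR called 1 lower in KO and 0 in HxD or V, DESeq2 called 2 lower in KO, 1 in HxD and 0 in V, and without adjustment 4 were lower in KO, 5 in HxD and 2 in V with a p under 0.05, and 1 was higher in KO and 1 in HxD. The shares of all tested genes called lower were again 0.15% for KO, 0.0204% for HxD and 0% for V by edgeR, 0.981%, 1.01% and 0.25% by DESeq2, and 4.54%, 4.82% and 3.2% without adjustment. Shares higher without adjustment were 3.75% of tested genes for KO and 3.42% for HxD. The gene called by edgeR was Arid4a, which encodes a subunit of SIN3 complexes, at 62.3 ± 11.03 CPM in KO and 136 ± 26.2 in WT. Its difference was -1.13 on the log2 scale with an SE of 0.25 (edgeR adjusted p = 0.0461). Its call ended without WT 1 (adjusted p = 0.163) and without KO 3 (0.169), and also with the stricter filter (0.0920), with those 2 genotypes alone (0.0633) and with WT 3 and V 3 set aside (0.0970). Whether the members and these lists differ in their response was not tested.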

How the data were processed

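Sorted male germ cells of E14.5 embryos were sequenced in 3 libraries for each of 4 Tet1 genotypes; a further WT sample listed in the labels was not analysed here. The values are raw counts of reads for each gene symbol, as deposited. The tools named per the submitters' processing notes include featureCounts 2.0.3, STAR 2.7.10b, Trim Galore 0.6.7, SAMtools 1.9 and FastQC, and the builds GRCm39 and mm10 are named without a role. For counting, neither the strand setting nor the annotation is given, so reads of overlapping or antisense genes cannot be told apart. Of the columns of values, 1 names no sample and was not used.

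In R 4.3.3, edgeR 4.0.16 filtered genes with its default expression filter, scaled counts by TMM and fitted the quasi-likelihood model to the 12 libraries by genotype, with no covariate. Tests were two-sided with Benjamini-Hochberg adjustment over 14702 genes and a threshold of 0.05. The common biological coefficient of variation was 0.932. The contrast over the mean of the 3 mutants came from the same fit. Alternatives were RLE scaling, DESeq2 1.42.0, no or a stricter filter (mean of 8 CPM), fits on the genotypes compared, a replicate block, leaving out each library, and setting WT 3 and V 3 aside. The fits were also run on simulated counts drawn without an outlying library, and no result given here rests on that run. No pair of libraries held identical counts.

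Members and gene lists were chosen with earlier results of these data known. The genes named are the 10 members, Tet1, the called members of each further list (or the 2 with the smallest p), and the 5 genes most like Tdrd1. Outside that rule, Ddx4, Coprs, Pou5f1, Nanos2, Sox9, Amh, Wt1, Dhh, Gata4, Pecam1, Cdh5, Kdr, Tek and Oaz3 were named after their values were seen. Gene coordinates and exon lengths are from GENCODE M21 and promoter windows from RefSeq, both matched by symbol on GRCm38; 9 of 10 members had a window. Proteins were not used.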

Additional observations from a re-analysis of the deposited data

How the results depend on the processing

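The number of called Tudor genes changed with several settings. In KO against WT, where 1 was called, DESeq2 gave 2, no expression filter 3, the stricter filter 0 and the 2 genotypes alone 0, and leaving out 1 library gave 0 to 2. Calls over all genes changed too, with 225, 148, 15 and 12 in these 4 settings and 15 to 127 without 1 library, against 32. In HxD, where 0 members and 5 genes were called, no filter gave 2 members of 67 genes and leaving out 1 library 0 to 1 of 1 to 47. In V, where 0 genes were called, no filter gave 1 member of 32 genes. Over the mean of the mutants, where 1 member and 21 genes were called, no filter gave 4 members of 153 genes, the stricter filter 0 of 14 and leaving out 1 library 0 to 3 of 4 to 107; a fit on the genotypes compared is the same fit there and has no separate value. Among single genes, 633 alternative values kept direction and side of the threshold, 23 became called, 5 lost the call (all Tdrd1) and 10 changed sign, none of them called. Those were Snd1 without WT 3 (-0.17 in KO, -0.053 in HxD, -0.12 in V and -0.11 over the mean) and with WT 3 and V 3 set aside (-0.17, -0.053, -0.10 and -0.11), and Tdrd3 in V without V 3 (0.018) and with WT 3 and V 3 set aside (0.028). With each library left out in turn, the highest values of Snd1 were 0.20, 0.31, 0.25 and 0.25, each without WT 1, and the lowest of Tdrd3 in V was -0.17. The cause was not tested.

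Deviations of same-numbered libraries from their genotype means correlated at -0.07 to 0.09. Libraries with different numbers were not compared in this way, so these values do not decide whether the replicate numbers pair the samples. With a replicate block, 1 Tudor gene was called in KO, 0 in HxD and V, and 2 (Tdrd1 and Tdrd7) over the mean of the mutants. The block gave 104, 45, 8 and 108 called genes in these comparisons, against 32, 5, 0 and 21 without it. Tdrd9 did not pass the stricter filter. Depth limits statements on Tdrd6, and the spread between 3 libraries those on the tested members.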
